A study of Mus musculus with 6 samples.

Results

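A set of 10 Krüppel-like factor genes was followed in LSK cells: Klf2, Klf3, Klf4, Klf6, Klf7, Klf10, Klf11, Klf12, Klf13 and Klf16. They were taken from the deposited expression table by gene symbol, as 10 of its 55487 genes, and all 10 passed the filter on low counts. LSK cells are the lineage-negative, Sca-1-positive and Kit-positive fraction of mouse bone marrow, where haematopoietic stem cells and multipotent progenitors are found. RNA came from 3 libraries of wild-type littermates and 3 libraries of mice lacking Mc5r, the gene of the melanocortin 5 receptor, a receptor coupled to Gs and cAMP. The series describes all these mice as irradiated, and gives no dose, time, age or number of mice per library in the sources used here, so the p-values measure the spread between libraries, which may be technical. Which part of Mc5r was deleted is likewise not given in the sources used here.

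Krüppel-like factors are transcription factors whose C-terminal zinc fingers bind CACCC and GC-rich sequences in promoters and enhancers. The proteins share these fingers and differ in the rest of the chain: KLF2, KLF4, KLF6 and KLF7 form a group known mostly as activators, KLF3 and KLF12 are repressors that recruit the corepressor CtBP, and KLF10, KLF11, KLF13 and KLF16 carry a motif that recruits the corepressor Sin3. In blood cells the family is known for holding cells quiescent, for guiding monocyte and red cell differentiation and for an early response of some members to stimulation.

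Gene counts summed to between 13983016 and 14953169 per library. Mc5r held 157 to 198 counts in the wild-type libraries and 0 or 1 in the Mc5r-null libraries. Of the 6 LSK markers Kit, Ly6a (which encodes Sca-1), Cd34, Flt3, Procr and Meis1, all were present in each library, and 5 were higher in Mc5r-null, Ly6a being the one that did not pass. Xist, the RNA of the inactive X chromosome in female cells, held 1167 to 1281 counts in wild type and 0 to 2 in Mc5r-null, while the Y-linked Kdm5d held 288 to 343 in all 6 libraries. Every wild-type library therefore held both Xist and Y-linked RNA, and the Mc5r-null libraries held Y-linked RNA with almost no Xist. The mix of sexes in the libraries and the genotype cannot be told apart. Immunoglobulin genes took 2.32% of counts in each wild-type library and 7.22% to 7.46% in the Mc5r-null libraries. Values below are CPM, a library's counts scaled by its total, and the fold changes are those fitted by edgeR after TMM scaling, which sets the libraries' bulk of genes level.

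Of the 10 factors, 5 fell in the Mc5r-null libraries, being called where the Benjamini-Hochberg adjusted p of edgeR, over all 15257 genes tested, was under 0.05. Of all tested genes, 16.1% fell. These were Klf2, Klf4, Klf6, Klf10 and Klf11. Klf13 and Klf16 were higher, 2 of 10, where 16.8% of all tested genes were higher, and Klf3, Klf7 and Klf12 did not pass. Among the 2270 tested genes with a mean of at least 100 CPM, the range in which Klf2, Klf4, Klf6 and Klf13 lie, 32.6% were lower and 19.8% higher. The median log2 fold change was -0.11 over the 10 factors and -0.0047 over all tested genes. The groups of libraries did not overlap in CPM for 7 of the 10 factors, the same 7 that passed. They did not overlap for 49.8% of all tested genes (28.7% lower and 21.0% higher).

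**Figure D1:**
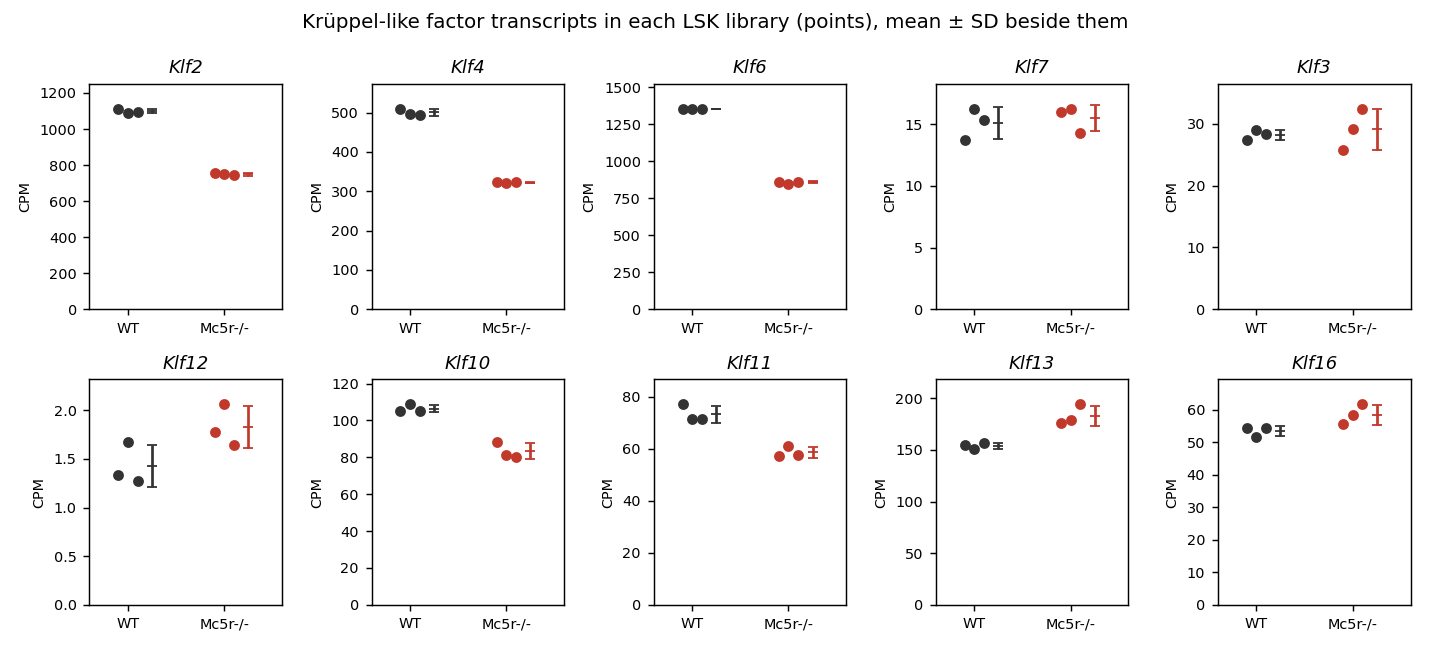
CPM of each factor (vertical axes, from 0) in the 3 wild-type (WT) and 3 Mc5r-null (Mc5r-/-) libraries, 1 point per library, with the mean and SD beside the points. The upper row holds Klf2, Klf4, Klf6, Klf7 and Klf3, and the lower row Klf12, Klf10, Klf11, Klf13 and Klf16. The points of Klf2, Klf4 and Klf6 form tight, well separated groups, while those of Klf3, Klf7 and Klf12 overlap.

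Klf6, Klf4 and Klf2, of the activator group, showed the largest decreases among the 10. Klf6 (ENSMUSG00000000078, GRCm38 chromosome 13, 5861482 to 5870394) encodes a widely expressed factor that many stimuli induce early. It stood at 1355, 1354 and 1354 CPM in wild-type replicates 1, 2 and 3 and at 859, 848 and 861 CPM in Mc5r-null replicates 1, 2 and 3. Every Mc5r-null library lay far below every wild-type library. The means of 1354 ± 0.300 and 856 ± 6.90 CPM (SD, n = 3 each) corresponded to a fitted log2 fold change of -0.63 ± 0.013 (SE), 1.55-fold lower, with an edgeR adjusted p of 9.2e-09. Klf4 (ENSMUSG00000003032, chromosome 4, 55527143 to 55532466), a reprogramming factor that also promotes monocyte differentiation, had 510.1, 497 and 495 CPM in wild type against 324, 320.0 and 323 CPM in Mc5r-null. Its groups were likewise far apart, at 501 ± 8.28 against 322 ± 1.95 CPM (log2 fold change -0.60 ± 0.020 SE, 1.52-fold lower, edgeR adjusted p = 1.3e-07). Klf2 (ENSMUSG00000055148, chromosome 8, 72319033 to 72321656), which keeps lymphocytes quiescent and endothelium in its resting state, had 1113, 1091 and 1094 CPM in wild type against 755, 748 and 742 CPM in Mc5r-null. All wild-type libraries stood above all Mc5r-null libraries, and the fitted log2 fold change was -0.52 ± 0.016 (SE), 1.43-fold lower (edgeR adjusted p = 9.4e-08).

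Klf7 (ENSMUSG00000025959, chromosome 1, 64029447 to 64122282), the closest relative of Klf6 in the family and known from neuronal development, was far less abundant, at 1.71 FPKM (a level per gene length) in wild type against 249 FPKM for Klf6. Its values of 13.7, 16.2 and 15.4 CPM in wild type against 16.0, 16.3 and 14.3 CPM in Mc5r-null overlapped. No difference was detected for it (log2 fold change 0.07 ± 0.094 SE, edgeR adjusted p = 0.59).

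The promoters of Klf2, Klf4 and Klf6 are shown because these genes were the most abundant of the family and were lower together. Each sequence holds the 250 bases before the RefSeq start site (GRCm38.p6), on the gene's strand, and 8 of the 10 factors, all but Klf10 and Klf16, were matched in the RefSeq promoter table. The windows are chr8:72318812-72319061 for Klf2 (plus strand), chr4:55532476-55532725 for Klf4 (minus strand) and chr13:5861239-5861488 for Klf6 (plus strand). Capitals mark the matches on either strand to CACCC, the family's own binding motif, to TGACG, the core of the cAMP response element, to CCAAT, and to the MEF2 motif.
Klf2: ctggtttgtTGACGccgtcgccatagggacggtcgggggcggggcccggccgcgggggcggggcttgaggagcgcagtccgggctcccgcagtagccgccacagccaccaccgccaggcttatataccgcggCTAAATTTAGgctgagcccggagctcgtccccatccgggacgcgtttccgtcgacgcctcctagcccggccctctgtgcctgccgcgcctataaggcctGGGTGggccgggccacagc
Klf4: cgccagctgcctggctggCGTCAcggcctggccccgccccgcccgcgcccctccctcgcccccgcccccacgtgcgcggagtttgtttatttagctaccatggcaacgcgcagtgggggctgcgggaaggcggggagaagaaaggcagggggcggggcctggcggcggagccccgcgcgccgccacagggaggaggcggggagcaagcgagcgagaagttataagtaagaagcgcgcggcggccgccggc
Klf6: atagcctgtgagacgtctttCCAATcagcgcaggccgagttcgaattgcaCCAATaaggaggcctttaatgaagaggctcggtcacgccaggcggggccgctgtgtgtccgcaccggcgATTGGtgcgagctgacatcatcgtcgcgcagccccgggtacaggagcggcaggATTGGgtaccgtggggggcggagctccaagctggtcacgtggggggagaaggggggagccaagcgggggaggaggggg
In the Klf2 window the capitals are, from left to right, TGACG, which starts 241 bases before the start site, the MEF2 motif at 118 bases and the reverse complement of CACCC at 19 bases. The MEF2 motif, the site of the factors through which the kinase ERK5 induces Klf2, was found in 2.92% of the 32851 windows of the same length in the table. The Klf4 window holds 1 match to the core site, on the reverse strand at 232 bases, and the Klf6 window holds 4 CCAAT boxes, at 230, 200, 131 and 78 bases. The core site was found in 17.8% of all windows, CCAAT in 33.8% and CACCC in 52.0%. A match to GGGCGG, the GC box, was present in all 3 windows, with 2 sites for Klf2, 4 for Klf4 and 1 for Klf6. It was found in 32.7% of all windows. Of the other matched factors, Klf3 had 6 sites, Klf11 4, Klf13 3 and Klf7 1, and Klf12 had none. The 3 windows printed above are rich in G and C, at 71.2% for Klf2, 74.0% for Klf4 and 64.8% for Klf6. The whole cAMP response element TGACGTCA (1.55% of all windows), which contains the core site, TATAAA (12.4%) and the CArG box of serum response factor (1.47%) were not found in these 3 windows.

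Klf10 and Klf11, 2 repressors first described as early genes of the TGF-beta response, were lower by a smaller amount. Klf10 (ENSMUSG00000037465, chromosome 15, 38291463 to 38300706) had 105, 109 and 105 CPM in wild type against 88.5, 81.4 and 80.5 CPM in Mc5r-null. All Mc5r-null libraries lay below all wild-type libraries, and replicate 1 was the highest of them (log2 fold change -0.32 ± 0.043 SE, 1.25-fold lower, edgeR adjusted p = 0.00081). Klf11 (ENSMUSG00000020653, chromosome 12, 24651274 to 24662789) had 77.0, 71.5 and 71.3 CPM in wild type against 57.1, 61.0 and 57.8 CPM in Mc5r-null. Its groups did not overlap either (log2 fold change -0.29 ± 0.048 SE, 1.22-fold lower, edgeR adjusted p = 0.0024).

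Klf13 and Klf16, of the same Sin3-binding group, went the other way. Klf13 (ENSMUSG00000052040, chromosome 7, 63886351 to 63938915), an activator of the chemokine gene Ccl5 in T cells, had 154, 150.4 and 157 CPM in wild type against 176, 179 and 194 CPM in Mc5r-null. Its rise was 1.22-fold (log2 fold change 0.29 ± 0.038 SE, edgeR adjusted p = 0.00072), with Mc5r-null replicate 3 the highest library. The noncoding gene Gm27252 lies inside the Klf13 locus and held 36 to 41 counts in wild type and 22 to 30 in Mc5r-null, against at least 2246 for Klf13. Klf16 (ENSMUSG00000035397, chromosome 10, 80567124 to 80577321) had 54.3, 51.7 and 54.3 CPM in wild type against 55.6, 58.3 and 61.6 CPM in Mc5r-null. These groups are adjacent without overlapping. The fitted difference was 1.12-fold (log2 fold change 0.16 ± 0.050 SE, edgeR adjusted p = 0.036). The call of Klf16 was lost with DESeq2 (adjusted p = 0.17), with the replicate number as a block (edgeR adjusted p = 0.062) and without any 1 library other than Mc5r-null replicate 1 (edgeR adjusted p between 0.067 and 0.11).

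The promoter window of Klf13 (chr7:63938916-63939165, GRCm38.p6, minus strand) is shown for comparison with the 3 above, as that of a factor that was higher.
Klf13: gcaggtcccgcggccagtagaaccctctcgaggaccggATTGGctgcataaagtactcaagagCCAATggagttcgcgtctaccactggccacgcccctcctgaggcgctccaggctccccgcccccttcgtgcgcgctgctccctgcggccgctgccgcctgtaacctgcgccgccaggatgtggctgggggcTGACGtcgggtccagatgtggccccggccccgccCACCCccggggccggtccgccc
The capitals are again CCAAT on the reverse and forward strands (212 and 187 bases before the start site), TGACG (56 bases) and CACCC (22 bases), the last of which overlaps a GC box by 1 base. Among the 4 windows shown, matches to TGACG lie in the windows of Klf2 and Klf4, which were lower, and of Klf13, which was higher, and not in that of Klf6. Of the other matched factors, Klf12, which did not pass, had a match at 90 bases. Klf3 and Klf7, which did not pass, and Klf11, which was lower, had none.

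Klf3 and Klf12, the CtBP-binding repressors, did not pass the test. Klf3 (ENSMUSG00000029178, chromosome 5, 64803388 to 64832901), which acts in red cell and B cell maturation, had 27.4, 29.0 and 28.4 CPM in wild type against 25.8, 29.2 and 32.5 CPM in Mc5r-null. The Mc5r-null libraries spread around the wild-type values on both sides (log2 fold change 0.08 ± 0.085 SE, edgeR adjusted p = 0.53). The overlapping transcripts C230096K16Rik and Gm20033 held at most 49 and 22 counts in a library, where Klf3 held at least 362. Klf12 (ENSMUSG00000072294, chromosome 14, 99870632 to 100284679) was measured from few counts, 20, 25 and 19 in wild type and 25, 29 and 23 in Mc5r-null. The fitted log2 fold change of 0.39 ± 0.21 (SE) did not pass (edgeR adjusted p = 0.21), and the part of the low counts in this was not tested. Whether the authors' counting used strand is not stated, so reads of Klf3 and Klf13 and of the genes that overlap them may be shared.

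Among the 10 factors the highest library of a genotype exceeded the lowest by at most 1.31-fold, which was reached by Klf12 in wild type, and by at most 1.10-fold for Klf2, Klf4, Klf6, Klf10 and Klf11. A spread of 2-fold or more within a genotype was met in 35 of the 2270 genes with at least 100 CPM. Counts that vary by sampling alone have a variance equal to their mean. The ratio of variance to mean of Klf6 was 0.00099 in wild type and 0.78 in Mc5r-null, that of Klf4 2.04 and 0.17, and that of Klf2 1.88 and 0.82. The medians over those 2270 genes were 1.45 and 1.43. The wild-type libraries of Klf6 are therefore closer to each other than counting noise gives on average, and their SD does not measure a spread between mice. Among the 10 factors the ratio in Mc5r-null was highest for Klf13, at 6.98, then 5.43 for Klf3, 3.26 for Klf10 and 2.23 for Klf16. In wild type it was highest for Klf11, at 2.17. Of the factors named in these last sentences, only Klf13 is among the 2270 genes behind the medians.

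Levels were compared between the genes in FPKM, which takes the length of each gene into account. Klf2 was the most abundant transcript of the family in wild type at 595 ± 6.37 FPKM (SD, n = 3), followed by Klf6 at 249 ± 0.0552 and Klf4 at 114 ± 1.88 FPKM. A wide gap separated these from Klf16 (19.98 ± 0.557), Klf13 (18.3 ± 0.376), Klf10 (16.5 ± 0.302) and Klf11 (14.5 ± 0.646 FPKM). Klf3 (1.94 ± 0.0549) and Klf7 (1.71 ± 0.144 FPKM) were far lower, and Klf12, at 0.151 ± 0.0228 FPKM, was the lowest of the 10. In Mc5r-null cells the order was the same, with Klf2 at 405 ± 3.58, Klf6 at 157 ± 1.27 and Klf4 at 73.1 ± 0.442 FPKM. There Klf16 (21.9 ± 1.14) and Klf13 (21.8 ± 1.13 FPKM) did not differ beyond their spread, nor did Klf3 (2.002 ± 0.231) and Klf7 (1.76 ± 0.121 FPKM), while Klf10 (12.9 ± 0.682) and Klf11 (11.6 ± 0.412 FPKM) did not overlap. All Klf transcripts, 17 genes with 3 of them at no more than 1 count in any library, summed to 1042 ± 8.77 FPKM in wild type and 723 ± 2.28 FPKM in Mc5r-null. Klf2, Klf6 and Klf4 made up 92.0 ± 0.0592% of this sum in wild type and 88.0 ± 0.320% in Mc5r-null.

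**Figure D2:**
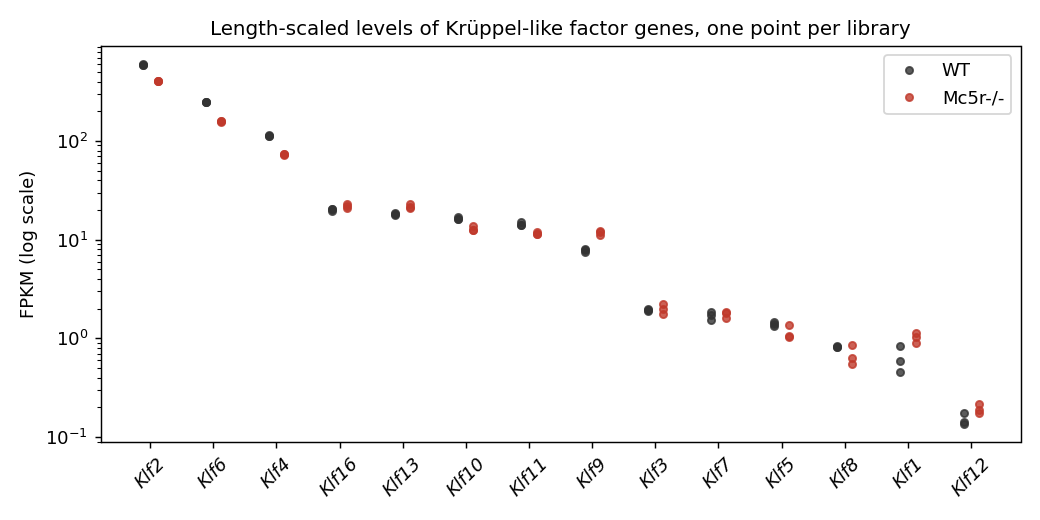
FPKM (log scale) of the 14 Klf genes with more than 1 count in a library, ordered by their wild-type mean, with 1 point per library in wild type (dark) and Mc5r-null (red). Klf2, Klf6 and Klf4 stand apart at the top, from 595 to 114 FPKM in wild type, and Klf9 is the gene of the middle range that rises most.

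The fitted decreases of Klf2, Klf4 and Klf6 lay between 1.43-fold and 1.55-fold. The FPKM ratio of Klf2 to Klf6 was 2.42, 2.37 and 2.38 in wild type and 2.59, 2.60 and 2.54 in Mc5r-null, without overlap. That of Klf4 to Klf6 was 0.464, 0.453 and 0.451 in wild type and 0.464, 0.465 and 0.463 in Mc5r-null, with overlapping ranges. Of 5 ratios compared, the ratio of Klf2 to Klf6 had a two-sided exact permutation p of 0.1, the smallest that 3 against 3 libraries allow, as did Klf2 to Klf4 (mean 5.24 to 5.55) and Klf13 to Klf16 (mean 0.915 to 0.995), with adjusted values of 0.167. Klf4 to Klf6 had an exact permutation p of 0.3 and Klf10 to Klf11 one of 0.8 (means 1.14 and 1.12). As no ratio could reach a p under 0.05 with 3 against 3 libraries, these tests cannot decide whether a ratio changed.

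Outside the 10, 4 other Klf genes were tested, and 1 rose, where 16.8% of all tested genes were higher. Klf9, a factor induced by glucocorticoids and thyroid hormone and a member of the Sin3-binding group, had 44.1, 42.3 and 45.1 CPM in wild type against 62.9, 67.0 and 68.0 CPM in Mc5r-null. Its groups did not overlap, and it rose 1.54-fold (log2 fold change 0.62 ± 0.048 SE, edgeR adjusted p = 3.1e-05), the largest increase among the Klf genes that passed. Klf1, the erythroid factor of the family, held 14, 26 and 18 counts in wild type and 30, 26 and 33 in Mc5r-null, and did not pass (log2 fold change 0.74 ± 0.25 SE, edgeR adjusted p = 0.055). Without wild-type replicate 2 its edgeR adjusted p was 0.022. Klf5, a relative of Klf4, had log2 fold change -0.24 ± 0.13 and the CtBP-binding Klf8 had -0.23 ± 0.16 (SE; edgeR adjusted p = 0.20 and 0.33). Each of these passed only when 1 library was left out, Klf5 without Mc5r-null replicate 1 (edgeR adjusted p = 0.049) and Klf8 without Mc5r-null replicate 2 (edgeR adjusted p = 0.041). Klf14 and Klf17 had no count in any library and Klf15 had 1.

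Of the Sp genes, whose proteins share the zinc fingers and GC-box binding, 4 of 9 were tested. Sp1, the general activator at GC boxes, was 1.08-fold higher (119.9 ± 3.56 to 127 ± 3.33 CPM, SD, n = 3 each, edgeR adjusted p = 0.040) and Sp2 was 1.11-fold lower (43.9 ± 1.05 to 38.8 ± 0.400 CPM, edgeR adjusted p = 0.043). Sp3, which competes with Sp1 for its sites, had a log2 fold change of -0.08 (edgeR adjusted p = 0.20) and Sp4 of 0.93 (edgeR adjusted p = 0.12).

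**Figure D3:**
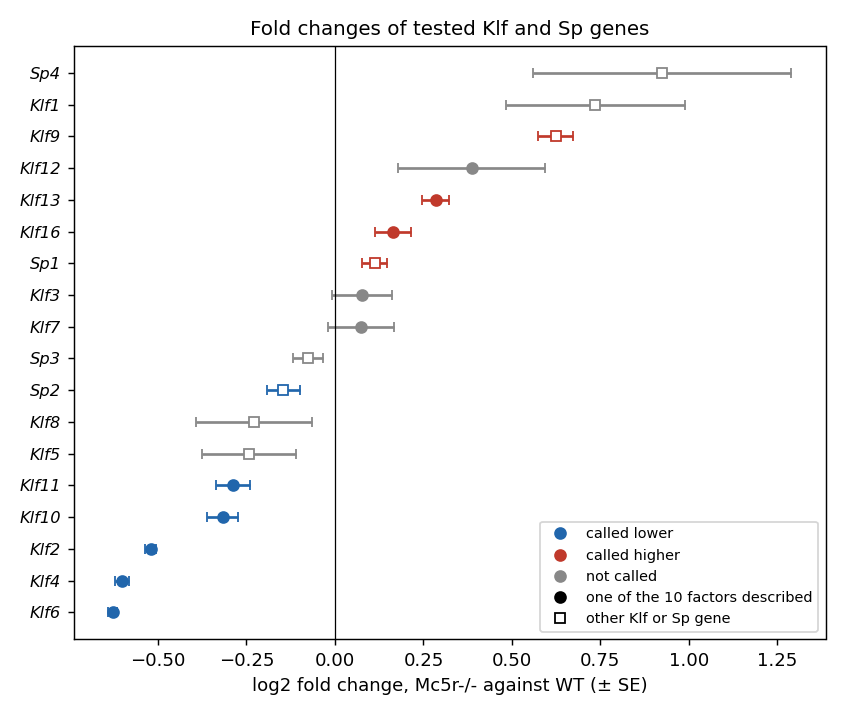
Fitted log2 fold change of Mc5r-null against wild type (horizontal axis, bars ± SE) for the 18 tested Klf and Sp genes, ordered by value. Filled circles are the 10 factors described and open squares other family genes, with genes called lower in blue, higher in red and those that did not pass in grey. Klf6, Klf4 and Klf2 stand together at the low end, near -0.63 to -0.52, and Klf9 is the highest gene called.

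Of 9 genes of corepressors and coactivators, the partners of the family, 2 were higher, 1 was lower and 6 did not pass, where 32.9% of all tested genes passed, and their median log2 fold change was 0.0078. The 2 CtBP genes went opposite ways, Ctbp1 1.16-fold higher (199 ± 7.76 to 225 ± 6.25 CPM, SD, n = 3 each) and Ctbp2 1.16-fold lower (42.6 ± 1.05 to 36.0 ± 0.628 CPM), with edgeR adjusted p of 0.0021 and 0.011. Crebbp, an acetyltransferase coactivator that also serves CREB, rose 1.16-fold (edgeR adjusted p = 0.00094). Sin3a and Sin3b, the scaffolds bound by KLF10, KLF11, KLF13 and KLF16, had log2 fold changes of 0.04 and 0.0078 and did not pass (edgeR adjusted p = 0.48 and 0.90). None of the 3 genes for ubiquitin ligase components that act on KLF proteins passed with edgeR, DESeq2 or limma-voom. At an unadjusted p under 0.05 there was 1 with edgeR and with DESeq2 and 2 with limma-voom, and with edgeR it was Smurf1 (log2 fold change 0.36, edgeR adjusted p = 0.082).

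Of 7 genes of the ERK5 and MEF2 pathway, which induces Klf2 and Klf4, 1 was higher, 1 was lower and 5 did not pass. The share that passed over all tested genes was 32.9%. Mapk7, which encodes ERK5 itself, was 1.22-fold lower (19.4 ± 0.963 to 15.6 ± 0.988 CPM, SD, n = 3 each, edgeR adjusted p = 0.027). The upstream kinase gene Map3k2 was 1.17-fold higher (edgeR adjusted p = 0.042), although its libraries overlapped in CPM, and Mef2d, the most abundant MEF2 gene here, had a log2 fold change of 0.05 (edgeR adjusted p = 0.13). Of 7 TGF-beta pathway genes, which lie upstream of Klf10 and Klf11, 2 were higher, 1 was lower and 4 did not pass. This count stands beside the same share of 32.9%. The ligand gene Tgfb1 was 1.18-fold lower (423 ± 8.15 to 350.2 ± 9.10 CPM, edgeR adjusted p = 0.00018), whereas the receptor gene Tgfbr2 was 1.18-fold higher (edgeR adjusted p = 0.017) and Smad3, the transcription factor of the pathway, was 1.31-fold higher (64.2 ± 1.30 to 82.3 ± 3.20 CPM, edgeR adjusted p = 0.00016).

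Of 9 genes reported as activated by KLF2, KLF4 or KLF6, 8 were tested, with 2 higher, 1 lower and 5 that did not pass (median log2 fold change 0.13). Over all tested genes, 32.9% passed. S1pr1, the sphingosine phosphate receptor gene through which KLF2 controls lymphocyte egress, was 1.44-fold higher (10.1 ± 0.229 to 14.2 ± 0.373 CPM, SD, n = 3 each, edgeR adjusted p = 0.0013). Eng, which encodes the TGF-beta coreceptor endoglin, was 1.19-fold higher (edgeR adjusted p = 0.0025). The genes of this list that passed went in both directions, and their dependence on Klf2, Klf4 and Klf6 was not tested.

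Immediate early genes outside the family, which respond to stimulation and to the handling of cells as Klf2, Klf4 and Klf6 do, were called in both directions. Over all tested genes, 16.1% were lower and 16.8% higher. Among the 2270 tested genes with a mean of at least 100 CPM, where all tested genes of this list lie, 32.6% were lower and 19.8% higher. Of the 14 immediate early genes, 13 were tested, with 8 lower and 5 higher (median log2 fold change -0.25). Their summed level was 23700 to 24150 CPM in the wild-type and 21290 to 22010 CPM in the Mc5r-null libraries. Atf3, a stress-induced factor gene, was 2.09-fold lower (336 ± 14.0 to 157 ± 5.14 CPM, SD, n = 3 each), and the AP-1 genes Fos and Jun were 1.24-fold and 1.19-fold lower, all with an edgeR adjusted p of at most 7.6e-07. Nr4a1, an orphan nuclear receptor gene, was 2.02-fold higher (1370 ± 166 to 2700 ± 297 CPM, edgeR adjusted p = 0.0074), and the other 4 that rose, Jund, Junb, Ier3 and Ier2, were 1.04-fold to 1.23-fold higher. The part of a response to stimulation or handling in the values of Klf2, Klf4 and Klf6 was not tested.

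The summed level of the 6 LSK markers was 1323 to 1358 CPM in the wild-type and 1628 to 1649 CPM in the Mc5r-null libraries (median log2 fold change 0.37). Procr, whose protein marks stem cells within the gate, was 1.77-fold higher (12.01 ± 0.932 to 20.8 ± 0.854 CPM, SD, n = 3 each, edgeR adjusted p = 0.00015), Meis1 1.46-fold, Flt3 1.39-fold, Cd34 1.21-fold and Kit 1.09-fold. The part of this shift in the Klf values was not tested.

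Markers of mature cells that could carry Klf transcripts into the LSK gate also moved. The counts below stand beside 16.1% lower and 16.8% higher over all tested genes. Of 6 monocyte and macrophage markers, the lineage that KLF4 promotes, 5 were lower and 1 was higher, and their summed level was 524 to 611 CPM in the wild-type and 349 to 394 CPM in the Mc5r-null libraries. Of 6 neutrophil markers 5 were lower and 1 higher, with sums of 3523 to 3766 CPM and 2550 to 2622 CPM, and of 6 basophil and mast cell markers 5 were lower, with sums of 389 to 424 CPM and 189 to 245 CPM. Of 6 endothelial markers, the cells in which Klf2 and Klf4 are known to be abundant, 4 were higher and none was lower with edgeR, DESeq2 and limma-voom, at an adjusted or an unadjusted p under 0.05, with summed levels of 110.5 to 116 CPM and 119.8 to 131 CPM. Those 4 were Kdr (4.47-fold, 0.580 ± 0.192 to 2.56 ± 0.197 CPM), Sparc (3.24-fold), Emcn (1.92-fold) and Tek (1.44-fold). Most of the endothelial sum came from Pecam1, at 96.4 ± 2.81 and 93.7 ± 4.70 CPM, and the endothelial cadherin gene Cdh5 stood at 2.55 ± 0.303 and 3.09 ± 0.154 CPM. Neither passed (edgeR adjusted p = 0.92 and 0.18). Whether the transcripts of these 6 genes came from endothelium or from LSK cells was not tested. All 6 plasma cell markers were higher (sums of 1833 to 1875 CPM and 2828 to 5804 CPM), as were 5 of 6 erythroid markers, a list that includes Klf1 (15.6 to 17.01 CPM and 114 to 117 CPM). Most of the plasma cell sum came from Jchain. It had 5603, 5495 and 2619 CPM in Mc5r-null replicates 1, 2 and 3, against 1760 ± 20.4 CPM in wild type. T cell markers summed to 12.3 to 13.7 CPM and 12.9 to 14.6 CPM, with Cd3e called higher of the 3 tested, and of 6 B cell markers 2 were higher and 3 lower (114 to 117 CPM and 135 to 139 CPM). No marker was at 0 in all libraries. In these bulk samples fewer cells of a type and less RNA per cell cannot be told apart, and the part of the other cells in the Klf values was not tested.

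**Figure D4:**
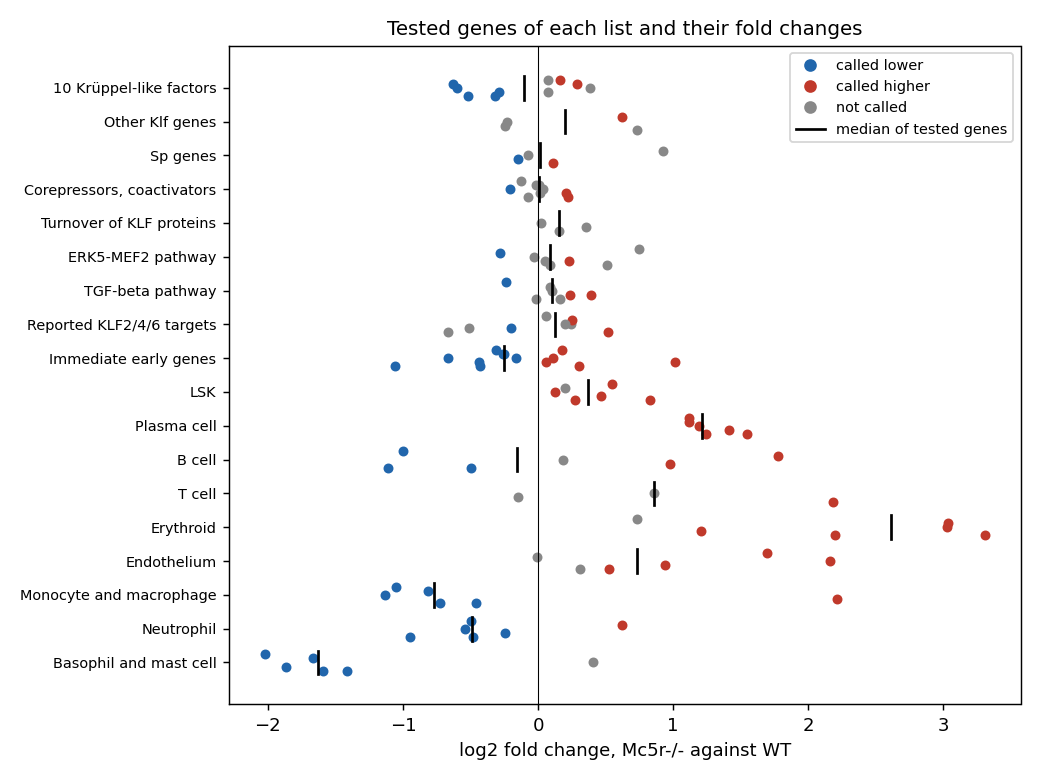
Fitted log2 fold changes of Mc5r-null against wild type (horizontal axis) for the tested genes of each list (vertical axis), 1 point per gene, with the list's median as a black bar and the calls in colour (blue lower, red higher, grey not passed). The 10 factors lie within -0.63 to 0.39, a narrower range than those of the monocyte, basophil and erythroid markers.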

How the data were processed

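Poly-A RNA of LSK cells was sequenced as paired-end stranded libraries, per the labels. The authors deposited 1 table with whole-number counts per gene, not normalized, and FPKM values, per the file headers. The submitters' processing notes name CASAVA 1.8, HISAT2, StringTie, edgeR and GRCm38 without roles, so the counting program and its use of strand are not given in the sources used here. Counts of all genes were fitted in R 4.3.3 with edgeR 4.0.16: filterByExpr (minimum count 10, minimum total 15), TMM scaling and the robust quasi-likelihood F-test of genotype, with Benjamini-Hochberg adjustment over all genes tested and calls at an adjusted p under 0.05. The SE is the log2 fold change divided by the root of F. The fit was also run on counts simulated with the spread of these same libraries, which does not test the calls reported here. Equal replicate numbers did not correlate across genes (0.00255, -0.0408 and -0.024), so no block was used. The 10 members and the gene lists were chosen with earlier results of these data known. The text names the members, every tested Klf and Sp gene, up to 3 genes of each other list with the smallest p and genes overlapping a member. Of the list of reported KLF targets, 1 gene is included in the counts but is not reported here singly. Other genes named, among them Sin3a, Sin3b, Nr4a1, Jund, Junb, Ier3, Ier2, the LSK and endothelial markers, Cd3e, Mef2a, Mef2c, Cdkn1a, Xist and Kdm5d, were picked with their values in view. The alternatives comprised upper-quartile and RLE scaling, TMM without immunoglobulin genes, DESeq2 1.42.0, limma-voom (limma 3.58.1), other filters on low counts, the replicate block and leaving out each library. No library was left out of the reported fit.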

Additional observations from a re-analysis of the deposited data

How the results depend on the processing

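Klf2, Klf4, Klf6, Klf10 and Klf11 were called lower and Klf13 higher under all 14 alternatives, with log2 fold changes from -0.53 to -0.51 for Klf2, -0.61 to -0.59 for Klf4, -0.63 to -0.62 for Klf6, -0.36 to -0.29 for Klf10, -0.32 to -0.25 for Klf11 and 0.24 to 0.31 for Klf13. Klf16 was called under 7 of the 14 (log2 fold change 0.13 to 0.20, adjusted p from 0.024 to 0.17). With DESeq2, 1655 genes were higher and 1446 lower, and 1 of the 10 factors was higher, where edgeR gave 2567, 2456 and 2; the cause was not tested. With the replicate block, 2254 genes were higher and 2148 lower, and 1 factor was higher and 5 were lower; equal numbers share only a number. Leaving out 1 library gave 2080 to 2124 higher and 1986 to 2094 lower genes, 1 to 2 factors higher and 5 lower. The log2 fold change of Klf3 ranged from -0.0043 (adjusted p = 0.98, without Mc5r-null replicate 3) to 0.157 as libraries were left out, and it passed under no alternative, and neither did Klf7 or Klf12. Klf12 held at most 29 counts in a library.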

Other observations

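Apart from the cell type markers, the lists around the family held 4 genes above 5 CPM that varied by more than 2-fold within a genotype. Sp4, a relative of Sp1, had 7.96, 6.30 and 16.0 CPM in wild-type replicates 1, 2 and 3 and 18.3, 19.0 and 18.9 CPM in the Mc5r-null replicates. Mef2a, a MEF2 gene, had 29.6, 24.6 and 53.9 CPM in wild type and 58.8, 58.5 and 60.1 CPM in Mc5r-null. In both genes wild-type replicate 3 stood close to the Mc5r-null libraries. Mef2c had 36.4, 34.1 and 34.7 CPM in wild type and 73.9, 36.1 and 36.1 CPM in Mc5r-null, with replicate 1 apart. Cdkn1a, the cell cycle inhibitor gene that KLF4 and KLF6 are reported to activate, had 192, 177 and 176 CPM in wild type and 86.8, 81.1 and 206 CPM in Mc5r-null, with replicate 3 apart. The edgeR adjusted p was 0.12 for Sp4, 0.16 for Mef2a, 0.34 for Mef2c and 0.44 for Cdkn1a.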
